A study of Mus musculus with 12 samples.

Results

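Right lungs of C57BL/6 mouse embryos, dissected at embryonic day 12.5, were compared by genotype: 3 libraries labelled Intu knockout against 3 labelled wild type, chosen by the genotype and side in their titles. These 6 libraries are the right side of a series of 12, in which each genotype and side has 3 numbered libraries. The embryos came from natural matings of mice that carried an Intu knockout allele, and no treatment is listed. Neither the region of Intu that the allele lacks nor the number of embryos behind a library is stated, and no Cre driver or other transgene is named. Whether libraries of 1 genotype stem from different embryos is not stated either, so the p-values reflect only how far these libraries scatter, and that scatter may be technical.

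Intu (inturned) encodes a planar cell polarity effector that forms the CPLANE complex with Fuz and its partners. This complex brings intraflagellar transport particles to the base of the primary cilium, the antenna-like organelle through which vertebrate cells transduce Hedgehog signals. In the early lung the epithelial buds secrete the ligand Shh, and the surrounding mesenchyme answers by transcribing target genes such as Gli1 and Hhip. Part of that mesenchyme becomes the smooth muscle that wraps the airways. At this stage the lung also receives vessels, macrophages and neural crest cells that form its intrinsic ganglia.

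Total RNA was sequenced, and the deposited values are raw read counts per gene on chromosomes 1 to 7, 10 and X and on a stretch of 8. Other chromosomes were not analysed here, Ptch1 among their genes. Each right library held 10290103 to 10712069 counts in these genes. Levels are given as normalised CPM (read counts scaled to a common library size) in each library in the order 1, 2, 3, and differences as the log2 fold change of knockout-labelled against wild type with its standard error (SE). A gene is called where edgeR's quasi-likelihood test gave a Benjamini-Hochberg adjusted p under 0.05. Within a group, every pair of libraries differed by more than counting error (chi-square over degrees of freedom 4.67 to 12.4), so none was a repeat deposit. On the first principal component, which held 38.6% of the variance, the wild-type libraries lay between -19.6 and -7.19 and the knockout-labelled ones between 10.5 and 20.6.

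Intu itself did not separate the labels. The gene (chromosome 3, 40531286 to 40704774, GRCm38) stood at 33.2, 34.03 and 28.3 CPM in wild type and at 28.3, 29.1 and 31.5 CPM in the knockout-labelled libraries. The groups overlapped, and the log2 fold change of -0.10 (SE 0.10) did not pass the test (adjusted p = 0.746). Since the labels do not give the removed part, a count over the whole gene may miss it, and the genotypes are written here as labelled. Lung genes were present in all 6 libraries: the ligand gene Shh stood at 97.04 to 130.3 CPM, the foregut endoderm factor Foxa2 at 98.5 to 111 CPM, and the lung mesenchyme genes Tbx5 and Wnt2 at 377 to 492 CPM and 228 to 253 CPM. None of these 4 genes was called between the genotypes.

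Of 9193 genes tested, 107 were called (1.16%): 82 were lower in the knockout-labelled right lungs (0.892%) and 25 were higher (0.272%). The groups did not overlap in any of the 107, which the call itself favours, so this is not separate evidence. Of all tested genes, 1668 had groups that did not overlap (18.1%). The median log2 fold change over all tested genes was 0.00489, and 1193 of the 9193 genes had an unadjusted p under 0.05 by edgeR's quasi-likelihood test. Calls rested partly on 2 libraries: without wild type 2 the count was 38, and without knockout-labelled 3 it was also 38, while leaving out each of the other 4 gave 84 to 149. In both of these smaller sets, 36 of the genes were among the 107. There were 30 genes that passed in all 6 fits with 1 library left out; among them were Actg2, Synpo2, Gli1, Hhip, Stmn2, Cxcl12, Actc1, Matn4 and Col15a1. The lower genes included smooth muscle, neuronal and Hedgehog target genes, and the higher ones a few genes of cartilage and of the mesenchyme, as the plot of all tested genes shows.

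**Figure D1:**
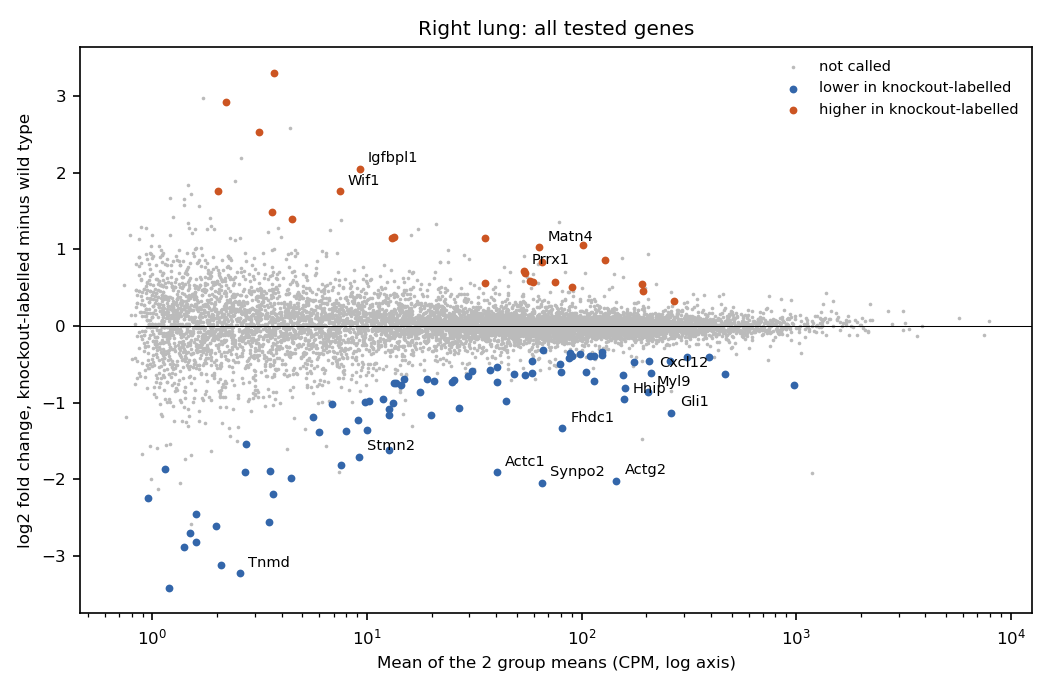
Each point is 1 of the 9193 tested genes: the x axis is the mean of the 2 group means in CPM on a log axis, the y axis the log2 fold change of knockout-labelled minus wild-type right lungs. Called genes are blue (82 lower) or orange (25 higher); Actg2, Synpo2, Actc1 and Fhdc1 stand below the other genes of like abundance.

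Of 6 tested transcriptional targets of Hedgehog signalling, 3 fell in the knockout-labelled lungs and none rose, with a list median of -0.43 on the log2 scale. Gli1, which encodes the activator that reports pathway output, stood at 349, 352 and 379 CPM in wild type and 151, 162 and 181 CPM in the knockout-labelled libraries. Every knockout-labelled library was below every wild-type one, a 2.19-fold lower mean (log2 -1.13, SE 0.07, adjusted p = 7.59e-05). Hhip, the decoy receptor that binds Hedgehog ligand, was at 219, 194 and 209 CPM against 94.9, 129 and 98.9 CPM. Its groups did not overlap either (log2 -0.95, SE 0.11, adjusted p = 0.00379). Both were called in all 6 fits with a library left out, and the list's count was 2 without wild type 2. The other members, Bcl2 (-0.15), Ccnd1 (-0.01) and Ccnd2 (0.01), had small estimates, and none of them was called. In whole lungs, fewer cells of a type and less RNA per cell cannot be told apart, and this holds for every result below.

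The pathway's own components were not called. None of the 16 tested ligand and transduction genes was called, and their median log2 fold change was 0.02. Shh stood at 98.8, 97.04 and 97.2 CPM in wild type and 103, 130.3 and 106 CPM in the knockout-labelled libraries. These groups did not overlap and the direction was higher, but the change did not pass the test (log2 0.21, SE 0.09, adjusted p = 0.346). Scube2, which helps release the ligand, had the largest estimate (log2 1.00, SE 0.26, adjusted p = 0.131) at a low level of 2.11 to 6.27 CPM. Smo, the signal transducer of the cilium membrane, was at 577 to 675 CPM over all 6 libraries (log2 -0.03), and Gli2 at 185 to 229 CPM (log2 0.05). Of the CPLANE genes, Fuz had a log2 fold change of -0.20 (adjusted p = 0.493) and Rsg1 one of 0.03. Among 29 tested primary cilium genes none was called and the median was 0.06; those with the smallest p were Bbs7, a BBSome subunit (log2 -0.34, adjusted p = 0.219), and Cep290, a transition zone protein (log2 0.30, adjusted p = 0.257). Of 9 planar cell polarity genes, the giant cadherin Fat4 was called, and it rose from 234, 239 and 244 CPM to 300.0, 299 and 303 CPM (log2 0.33, SE 0.05, adjusted p = 0.0115). Fat4 lies close to Intu on chromosome 3, and its call was lost without wild type 2 (adjusted p = 0.0856) or knockout-labelled 3 (0.0693).

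Of 14 tested smooth muscle genes, 7 fell in the knockout-labelled lungs and none rose; 12 had a negative estimate, and the median was -0.35. Actg2, the gamma smooth muscle actin of visceral muscle, was at 218, 220.0 and 259.9 CPM in wild type and 58.5, 53.5 and 60.3 CPM in the knockout-labelled lungs. The knockout-labelled values lay within a narrow band, 4.05-fold below the wild-type mean (log2 -2.02, SE 0.08, adjusted p = 4.9e-06), the smallest p of the comparison. Synpo2, an actin-bundling protein of muscle, was at 97.7, 103 and 115 CPM against 28.00, 26.7 and 21.6 CPM. The groups did not overlap (log2 -2.04, SE 0.10, adjusted p = 1.76e-05). Pdlim3, an actinin-binding protein, dropped from 19.04, 20.01 and 18.2 CPM to 4.99, 6.66 and 6.95 CPM (log2 -1.62, SE 0.15, adjusted p = 0.00127). Myl9, the regulatory light chain of smooth muscle myosin, was at 244, 265 and 283 CPM against 171, 135 and 129.8 CPM, and knockout-labelled 1 kept the highest of the lowered values (log2 -0.86, SE 0.10, adjusted p = 0.00438).

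Lmod1, a leiomodin that nucleates actin filaments, was close to even within each group, at 16.1, 15.3 and 15.7 CPM and 8.03, 8.30 and 7.92 CPM (log2 -0.96, SE 0.12, adjusted p = 0.00589). Tspan2, a tetraspanin enriched in smooth muscle, stood at 59.3, 59.6 and 56.4 CPM against 39.8, 39.1 and 34.9 CPM (log2 -0.62, SE 0.08, adjusted p = 0.00533). These genes, like Actg2, Synpo2, Pdlim3 and Myl9, were called in all 6 fits with a library left out. Des, the intermediate filament desmin, was at 97.6, 104 and 107 CPM against 71.5, 82.2 and 81.3 CPM (log2 -0.39, adjusted p = 0.031), and its call held in only 1 of those 6 fits (adjusted p in the other 5, 0.0592 to 0.155). Tpm2 (-0.30), Csrp1 (-0.32), Cald1 (-0.22) and Myl6 (-0.15) had lower, non-overlapping values in every knockout-labelled library but did not pass the test. Flna (-0.05), Itga8 (0.14) and Synm (0.42) overlapped between groups. The summed level of all 14 genes was 6435 to 6586 CPM in wild type and 5542 to 5743 CPM in the knockout-labelled libraries.

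**Figure D2:**
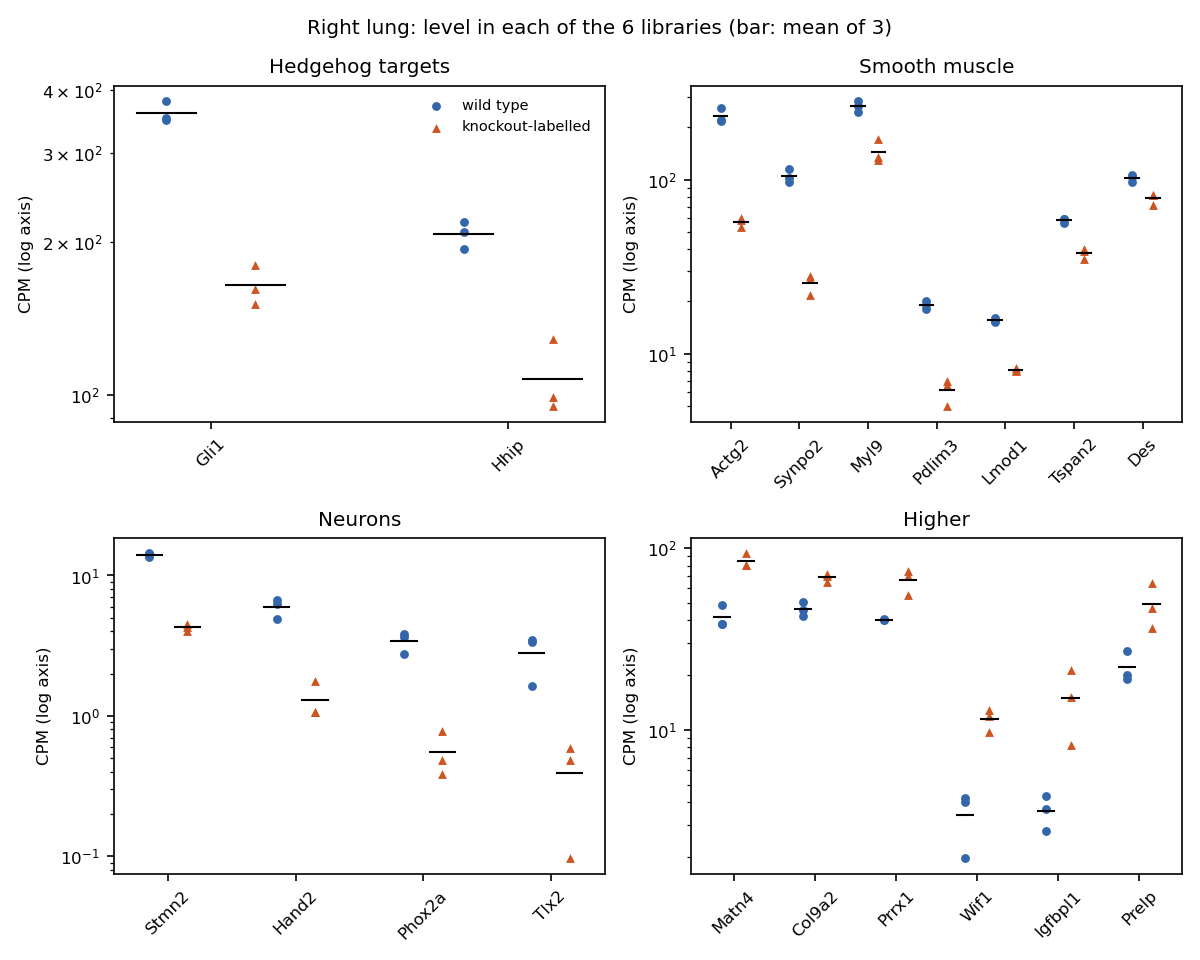
Each point is the level of a gene in 1 library in CPM on a log axis, blue circles for the 3 wild-type and orange triangles for the 3 knockout-labelled right lungs, with a bar at the mean of 3. In all genes shown the groups are apart; the third knockout-labelled library holds the lowest Tlx2 value (0.0966 CPM).

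Several called genes outside the smooth muscle list, chosen after their values were seen and not a tested group, have roles in actin filaments or muscle; most were lower, and Tmod4, a tropomodulin that caps actin filaments, was higher (log2 1.40, adjusted p = 0.0195). Actc1, the cardiac alpha-actin that early smooth muscle also uses, was at 56.6, 61.6 and 72.4 CPM in wild type and 14.9, 22.98 and 12.9 CPM in the knockout-labelled lungs (log2 -1.91, SE 0.18, adjusted p = 0.00158). It was the only called member of the 7 tested cardiac and the 8 tested skeletal muscle genes. The cardiac light chain Myl2 went the other way without passing the test (log2 2.98, adjusted p = 0.128), at 1.05, 0.0935 and 0 CPM against 3.62, 4.34 and 1.26 CPM. Fhdc1, a formin-related actin regulator, fell from 108, 119 and 122 CPM to 48.1, 41.5 and 48.8 CPM (log2 -1.34, SE 0.08, adjusted p = 6.48e-05). Jph2, which ties the plasma membrane to the sarcoplasmic reticulum, fell from 59.99, 61.4 and 55.6 CPM to 26.7, 36.8 and 26.1 CPM (log2 -0.98, adjusted p = 0.0059). The same direction was called for Slc24a3, a sodium-calcium exchanger (log2 -1.16, adjusted p = 0.00233), Smyd1, a muscle methyltransferase (log2 -1.37, adjusted p = 0.00962), and Camk2d, a calcium-dependent kinase (log2 -0.61, adjusted p = 0.00854).

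Smaller decreases were called for the cytoskeletal adaptors Fblim1 (log2 -0.41) and Fhl2 (-0.70), for the membrane anchor Ank2 (-0.45), and for Gucy1a1 (-0.41), Ppp1r12b (-0.38) and Mrvi1 (-0.36), which act in nitric oxide signalling and relaxation. Actc1, Fhdc1, Jph2 and Slc24a3 held in all 6 fits with a library left out. Smyd1 and Camk2d each missed only without knockout-labelled 3 (adjusted p = 0.0519 for both). Fblim1, Fhl2 and Ank2 were lost without wild type 2 or knockout-labelled 3 (adjusted p 0.0516 to 0.0936), and Gucy1a1, Ppp1r12b and Mrvi1 each in 4 of the 6 fits (0.0554 to 0.128).

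Promoter sequences were looked at for these called genes because serum response factor drives many contractile genes through a CArG box, a CC pair and a GG pair that enclose a run of A or T letters, and because Gli factors bind GACCACCCA. RefSeq promoters (GRCm38.p6) ran from 250 bases before to 50 bases after a start site and were found for 59 of the 82 lower and 19 of the 25 higher genes. Gli1 and Actg2 were not among the genes searched. Both strands were searched, and no promoter of a called gene held both motifs. A CArG box lay in 6 of 84 promoters of lower genes (7.14%), in 5 genes: Actc1, Myl9, Fhl2, Pdgfc and Glipr2. It lay in 0 of 20 promoters of higher genes and in 535 of all 32851 promoters of this length (1.63%). GACCACCCA was in 1 promoter of a lower gene (1.19%), that of Ank2, and in 0.253% of all promoters. These are matches of letters and not measured binding. Promoters of 3 of these 5 lower genes with a CArG box and that of Ank2 are shown 5′ to 3′ on the gene's strand, with the match in capitals: Myl9 (chr2:156775214-156775513, plus strand, first base of the match at -161 from the start site), Actc1 (chr2:114052826-114053125, minus, -47), Fhl2 (chr1:43163912-43164211, minus, -31) and Ank2 (chr3:127409009-127409308, minus, -147).
Myl9: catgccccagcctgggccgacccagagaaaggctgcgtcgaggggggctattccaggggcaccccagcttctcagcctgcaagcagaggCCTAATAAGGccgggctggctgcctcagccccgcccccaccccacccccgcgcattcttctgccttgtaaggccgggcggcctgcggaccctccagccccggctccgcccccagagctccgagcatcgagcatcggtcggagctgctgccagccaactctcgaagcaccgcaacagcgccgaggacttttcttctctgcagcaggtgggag
Actc1: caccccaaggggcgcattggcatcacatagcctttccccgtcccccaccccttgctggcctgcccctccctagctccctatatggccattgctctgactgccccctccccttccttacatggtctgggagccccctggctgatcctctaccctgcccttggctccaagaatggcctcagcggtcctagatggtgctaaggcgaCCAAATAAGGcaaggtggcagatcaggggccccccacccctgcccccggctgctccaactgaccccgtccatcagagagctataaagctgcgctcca
Fhl2: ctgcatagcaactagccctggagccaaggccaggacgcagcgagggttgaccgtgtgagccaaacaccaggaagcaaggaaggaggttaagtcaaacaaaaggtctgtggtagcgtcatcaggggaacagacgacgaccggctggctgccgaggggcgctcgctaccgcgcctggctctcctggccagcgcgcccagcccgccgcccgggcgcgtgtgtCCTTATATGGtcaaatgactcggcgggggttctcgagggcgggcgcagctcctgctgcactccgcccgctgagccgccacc
Ank2: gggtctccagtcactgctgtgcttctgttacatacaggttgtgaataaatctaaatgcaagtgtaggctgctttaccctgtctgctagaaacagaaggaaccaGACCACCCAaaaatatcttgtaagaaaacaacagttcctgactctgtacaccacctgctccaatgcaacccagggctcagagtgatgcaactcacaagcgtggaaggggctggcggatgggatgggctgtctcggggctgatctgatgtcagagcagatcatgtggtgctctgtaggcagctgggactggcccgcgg

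Of 17 tested genes of autonomic neurons, 5 fell in the knockout-labelled right lungs and none rose; 14 had a negative estimate, and the median log2 fold change was -0.99. Stmn2, a microtubule regulator of growing axons, was at 14.3, 14.4 and 13.5 CPM in wild type and 4.31, 4.06 and 4.54 CPM in the knockout-labelled lungs. Both groups were tight and lay far apart (log2 -1.71, SE 0.14, adjusted p = 0.000641). Hand2, a basic helix-loop-helix factor of the same lineage that mesenchyme can also express, fell from 6.31, 6.73 and 4.89 CPM to 1.76, 1.06 and 1.06 CPM (log2 -2.20, SE 0.27, adjusted p = 0.00503). Both genes were called in all 6 fits with a library left out.

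Phox2a, a homeodomain factor of autonomic neurons, was at 3.64, 3.83 and 2.78 CPM against 0.783, 0.483 and 0.386 CPM (log2 -2.61, adjusted p = 0.00589), and Tlx2, a factor of enteric neurons, at 3.35, 3.46 and 1.63 CPM against 0.587, 0.483 and 0.0966 CPM (log2 -2.82, adjusted p = 0.0259). In both, the knockout-labelled libraries were all below 1 CPM, and Tlx2 was lost without wild type 1, wild type 2 or knockout-labelled 3 (adjusted p 0.0915 to 0.116). Phox2a overlaps Inppl1, and Hand2 overlaps Hand2os1, each on the opposite strand; whether counting used strand is not given, so reads of the partners cannot be told apart. The receptor Ret was at 17.03, 15.9 and 19.3 CPM against 12.7, 11.2 and 9.85 CPM, and Elavl4 at 8.13, 8.51 and 10.6 CPM against 5.48, 5.02 and 6.57 CPM; neither was called (log2 -0.63 and -0.67, adjusted p = 0.0752 and 0.131), though their groups did not overlap. The abundant members Dcx (0.04) and Uchl1 (0.05) were near 0, and the summed level of the 17 genes was 274 to 300 CPM in wild type against 233 to 256 CPM.

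None of 8 tested Schwann cell precursor genes was called and their median was 0.10; the receptor Erbb3 was at 127, 115 and 136 CPM against 118, 128 and 127 CPM (log2 -0.02). Of 5 tested neuroendocrine genes, a list that shares members with the neuronal one, Calcb was called. It encodes a calcitonin gene-related peptide and was at 4.50, 3.74 and 2.97 CPM against 0.587, 0.483 and 0.193 CPM (log2 -3.12, SE 0.37, adjusted p = 0.00474). Insm1, a factor of neuroendocrine and neuronal progenitors, had non-overlapping lower values but was not called (log2 -2.05, adjusted p = 0.0544). Outside the lists, and chosen after their values were seen, the neuropeptide receptor Tacr1 (log2 -1.39, adjusted p = 0.00438), the neuronal pentraxin Nptx2 (-1.81, 0.00397), the RNA-binding protein Celf3 (-1.89, 0.00734) and the transporter Slc10a4 (-2.70, 0.0173) were called lower, while Caln1, a neuronal calcium-binding protein, was called higher (log2 2.54, adjusted p = 0.0206). Celf3 was lost without knockout-labelled 3 (adjusted p = 0.0516), and Slc10a4 without wild type 2 or knockout-labelled 3 (0.0843 and 0.0561).

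Of 18 tested macrophage genes, 3 fell, with calls that depended on single libraries. All 18 had a negative estimate and the median was -0.49. Laptm5, a lysosomal protein of blood cells, was at 43.1, 46.7 and 43.9 CPM in wild type and 33.00, 28.6 and 28.2 CPM in the knockout-labelled lungs (log2 -0.57, adjusted p = 0.0151). C1qb, a complement chain made by tissue macrophages, was at 33.3, 32.1 and 27.3 CPM against 20.95, 17.5 and 17.7 CPM (log2 -0.72, adjusted p = 0.0182). Mrc1, the mannose receptor, was at 70.8, 73.7 and 74.5 CPM against 58.6, 58.1 and 59.4 CPM (log2 -0.31, adjusted p = 0.046). No groups overlapped in these 3 genes, yet without wild type 2 or without knockout-labelled 3 the number called was 0 of 18, and Mrc1 was called in none of the 6 fits (adjusted p 0.0622 to 0.207). Over the whole list, 12 of 18 genes had non-overlapping groups, against 18.1% of all tested genes. The list was chosen with earlier results of these data known, so this share is a description. The summed level was 438 to 516 CPM in wild type and 358 to 414 CPM in the knockout-labelled libraries. Fcrls, a macrophage receptor outside the list, was also called (log2 -0.86, adjusted p = 0.0132) and was lost without wild type 1, wild type 2 or knockout-labelled 3 (0.0569 to 0.0752).

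Other blood genes gave no call. The platelet list had a median of -0.74 over 7 tested genes, with Ppbp at 8.99, 13.3 and 6.61 CPM against 4.70, 2.90 and 2.12 CPM (log2 -1.57, adjusted p = 0.0541) and Pf4 at 14.3, 14.96 and 13.2 CPM against 9.30, 9.85 and 9.56 CPM (log2 -0.56, adjusted p = 0.0707). Both chemokine genes were lower in every knockout-labelled library without passing the threshold. Of the 7 platelet genes, 5 had a negative and 2 a positive estimate. Their summed level overlapped between the groups, at 1086 to 1316 CPM in wild type and 951 to 1489 CPM in the knockout-labelled libraries. The 15 tested erythroid genes had a median of -0.01, and their summed level was 2523 to 2772 CPM against 2811 to 3678 CPM. Of these, the embryonic globin Hbb-y had the smallest p (log2 0.29, adjusted p = 0.151).

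Cartilage genes were among the few that rose. Of 9 tested members, 2 were called, both higher, 8 had a positive estimate, and the median was 0.26. Matn4, a matrilin of cartilage matrix, was at 38.1, 38.1 and 48.4 CPM in wild type and 80.7, 93.7 and 80.7 CPM in the knockout-labelled lungs (log2 1.03, SE 0.11, adjusted p = 0.00233). Col9a2, a chain of collagen IX, was at 42.6, 45.8 and 50.2 CPM against 70.5, 64.98 and 71.95 CPM (log2 0.58, SE 0.08, adjusted p = 0.00911). In both genes every knockout-labelled library was above every wild-type one. Matn4 held in all 6 fits with a library left out, and Col9a2 was lost without wild type 2 (adjusted p = 0.0648) or knockout-labelled 3 (0.0534). Sox5 (0.01) and Sox6 (0.03), the transcription factors of chondrocyte differentiation, did not differ beyond their spread. Matn4 overlaps Rbpjl on the opposite strand, and Rbpjl was called higher as well, from 7.85, 8.32 and 8.44 CPM to 13.8, 23.3 and 18.1 CPM (log2 1.16, adjusted p = 0.0173); without strand the reads of the 2 genes cannot be told apart, and Rbpjl was lost in 3 of the 6 fits (adjusted p 0.0693 to 0.0855).

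Of 4 tested tendon and tenascin genes, 2 fell, at low levels. Tnmd, the tendon membrane protein tenomodulin, was at 4.59, 4.02 and 5.27 CPM against 0.294, 0.290 and 0.869 CPM (log2 -3.22, SE 0.37, adjusted p = 0.00429) and held in all 6 fits with a library left out. Tnn, tenascin N, was at 2.01, 2.24 and 3.16 CPM against 0.0979, 0.676 and 0.193 CPM (log2 -2.89, SE 0.50, adjusted p = 0.0232), a call that held in 1 of the 6 (adjusted p in the other 5, 0.0508 to 0.106). Of the others, Tnc was lower in every knockout-labelled library without passing the test (log2 -0.72, adjusted p = 0.15), and Fmod was near 0 (-0.02).

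Few of the remaining matrix genes were called. Of 20 tested collagen genes 1 was called: Col15a1, a basement membrane-associated collagen, rose from 154, 168 and 166 CPM to 214, 232 and 221 CPM (log2 0.45, SE 0.06, adjusted p = 0.00621), and 15 of the 20 had a positive estimate (median 0.12). Prelp, a small leucine-rich proteoglycan, was the 1 called member of 8, at 19.04, 20.01 and 27.2 CPM against 36.1, 64.1 and 46.9 CPM (log2 1.15, SE 0.20, adjusted p = 0.0259). Its call was lost without wild type 1, wild type 2 or knockout-labelled 3 (adjusted p 0.0822 to 0.134). None of 21 other matrix and adhesion genes was called; Fbln2 had the smallest p (log2 0.40, adjusted p = 0.0519).

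Among secreted signals, Cxcl12 was called lower. This chemokine, which guides endothelial and blood cells, was at 249, 251 and 262 CPM in wild type and 170.4, 166 and 161 CPM in the knockout-labelled lungs. The 3 libraries of each group lay close together and the groups far apart (log2 -0.62, SE 0.05, adjusted p = 0.000755). It was the only one called of 22 axon guidance and chemokine genes; its receptors Cxcr4 (-0.17) and Ackr3 (-0.18) were not called. Of 26 tested Wnt genes, Wif1 and Lgr6 were called, in opposite directions. Wif1, a secreted Wnt inhibitor, rose from 4.02, 1.96 and 4.22 CPM to 9.69, 12.9 and 11.9 CPM (log2 1.76, SE 0.25, adjusted p = 0.0105), and Lgr6, an R-spondin receptor, fell from 45.8, 45.2 and 59.9 CPM to 26.7, 34.4 and 29.8 CPM (log2 -0.73, SE 0.13, adjusted p = 0.0277). Wif1 was lost without knockout-labelled 3 (adjusted p = 0.0534), and Lgr6 held in 2 of the 6 fits (adjusted p in the other 4, 0.0585 to 0.106).

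Of 25 BMP and TGF-beta genes, 2 were called and both were lower. The ligand gene Bmp7 fell from 90.03, 91.2 and 97.7 CPM to 68.05, 60.6 and 69.8 CPM (log2 -0.49, SE 0.07, adjusted p = 0.0115), and missed the threshold without wild type 2 (0.0648). Of 26 insulin-like growth factor and imprinted genes, Igf1 fell and Igfbpl1 rose. Igf1, the growth factor, was at 184, 174 and 213 CPM against 117, 139 and 108 CPM (log2 -0.65, SE 0.10, adjusted p = 0.0161), lost without knockout-labelled 3 (0.0716). Igfbpl1, which encodes a protein like the IGF-binding ones, was at 4.31, 3.65 and 2.78 CPM against 21.3, 8.30 and 15.1 CPM, spread widely over the knockout-labelled libraries (log2 2.05, SE 0.33, adjusted p = 0.0171) and was called in 2 of the 6 fits (adjusted p in the other 4, 0.0534 to 0.0856). Nrg1, an ErbB ligand outside the lists, was called lower in all 6 (log2 -1.16, adjusted p = 0.00474).

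Transcription factors of the mesenchyme had a median of -0.01 over 23 tested genes. Prrx1, a homeobox gene of mesenchyme, was at 40.9, 40.4 and 40.1 CPM in all wild-type libraries and at 74.8, 70.7 and 55.1 CPM in the knockout-labelled ones (log2 0.72, SE 0.11, adjusted p = 0.0115); knockout-labelled 3 rose least, and the call was lost without wild type 2 (0.0707). Sall1 was called lower at a trace level, 1.24, 1.40 and 2.11 CPM against 0.294, 0.483 and 0.193 CPM (log2 -2.25, adjusted p = 0.045), but in none of the 6 fits with a library left out (adjusted p 0.05004 to 0.167). Of 9 tested Hox genes, Hoxd8 was called higher at 0.957, 0.841 and 0.959 CPM against 3.33, 3.19 and 2.90 CPM (log2 1.76, adjusted p = 0.0105), and Hoxa7 lower at 21.3, 15.5 and 15.05 CPM against 6.85, 9.85 and 7.73 CPM (log2 -1.09, adjusted p = 0.023). Hoxd8 was lost without wild type 2 or knockout-labelled 3 (0.0709 and 0.0516) and Hoxa7 in 4 of the 6 fits (0.0547 to 0.101). Hoxa7 overlaps the antisense gene Hoxaas3, so its reads are uncertain. Hoxa5, which the lung needs for its patterning, was not called (log2 0.03).

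**Figure D3:**
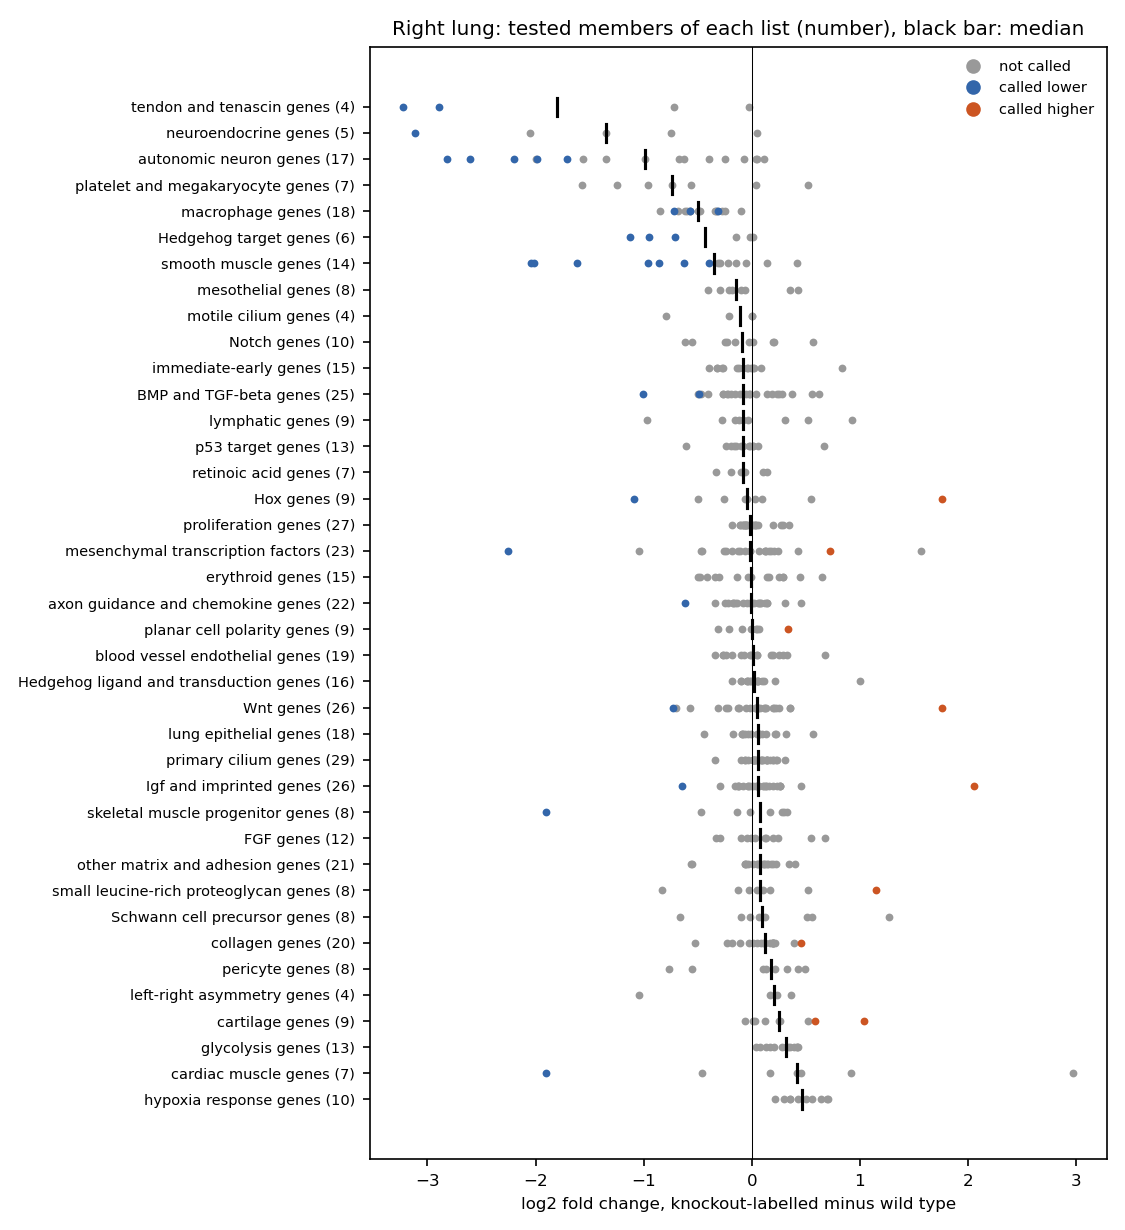
Each dot is 1 tested member of a list with at least 4 tested members (the number stands in brackets), placed by its log2 fold change of knockout-labelled minus wild type; grey dots were not called, blue were called lower and orange higher, and the black bar is the list's median. Tendon, neuroendocrine, neuron, platelet, macrophage, Hedgehog target and smooth muscle lists lie lowest, and the hypoxia, cardiac, glycolysis and cartilage lists highest.

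Genes of sugar breakdown and of the response to low oxygen gave no call but leaned to 1 side, as the plot of lists shows. All 13 tested glycolysis genes had a positive estimate with a median of 0.31, and all 10 tested low-oxygen genes with a median of 0.46. Ldha, lactate dehydrogenase, was at 1279, 1053 and 1185 CPM in wild type and 1507, 1983 and 1245 CPM in the knockout-labelled libraries (log2 0.43, SE 0.14, adjusted p = 0.233). P4ha1, a collagen prolyl hydroxylase subunit, was at 132, 117 and 118 CPM against 166, 275 and 131 CPM (log2 0.64, SE 0.22, adjusted p = 0.242). In both, knockout-labelled 2 was the highest of all 6 libraries and knockout-labelled 3 lay near wild type. Without knockout-labelled 2 the medians were 0.14 and 0.13, with 12 of 13 and 8 of 10 estimates positive. Without knockout-labelled 3 they were 0.40 and 0.61. The count of 0 called held in all 6 fits with a library left out. With all 6 libraries, edgeR's quasi-likelihood test gave 8 of 13 and 4 of 10 genes an unadjusted p under 0.05. The count of such genes among all 9193 tested ones, whose median log2 fold change was near 0, is given above. DESeq2 called 2 glycolysis genes and 1 low-oxygen gene, and edgeR's quasi-likelihood test with no filter on low counts called 5 and 3.

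**Figure D4:**
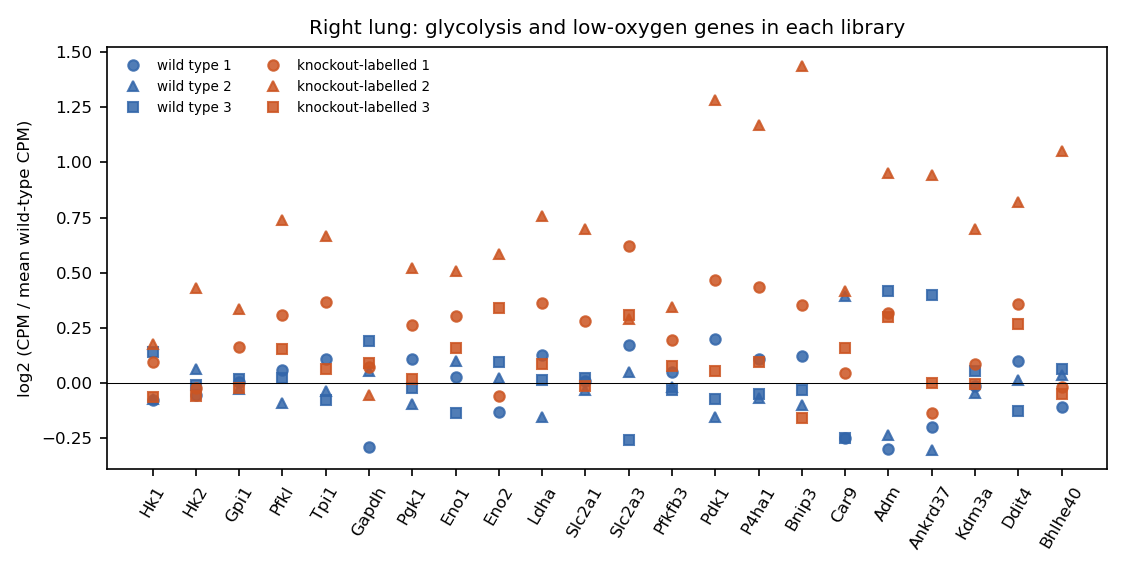
For each gene of the glycolysis and low-oxygen lists (x axis) the level in each library is shown as the log2 ratio to the wild-type mean in CPM, blue for wild type and orange for knockout-labelled, with 1 marker shape per library number. Knockout-labelled 2 (orange triangles) stands above the others in most genes, and knockout-labelled 3 (orange squares) lies near wild type in many.

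Cell types and processes for which no gene was called covered most of the other lists. In all, 25 lists had no call. Of their 274 tested genes 73 had an unadjusted p under 0.05 by edgeR's quasi-likelihood test. Of the 274, DESeq2 called 16, limma-voom 0 and edgeR with no filter on low counts 25. Over all genes DESeq2 called 222 of 9193, limma-voom 109 of 9193 and edgeR with no filter 306 of 17474. The count of all tested genes at an unadjusted p under 0.05 is given above. A list without a call is not shown to be unchanged. For lung epithelium, 0 of 18 genes were called (median 0.06, smallest p for Elf3, log2 0.57, adjusted p = 0.219), and the summed level was 1015 to 1110 CPM in wild type and 989.5 to 1142 CPM in the knockout-labelled libraries. Blood vessel endothelium had 0 of 19 (median 0.01, Cd34 -0.24), pericytes 0 of 8 (median 0.18), lymphatic genes 0 of 9 (median -0.08) and mesothelium 0 of 8 (median -0.14, Upk3b -0.41, adjusted p = 0.0879). Proliferation genes had 0 of 27 with a median of -0.01; the cell cycle inhibitor Cdkn1b came closest (log2 0.34, adjusted p = 0.0528). FGF genes had 0 of 12, Notch genes 0 of 10, retinoic acid genes 0 of 7, p53 targets 0 of 13 and immediate-early genes 0 of 15, with medians between -0.09 and 0.08. Genes of tissues that could be carried along in dissection were few: 1 of liver (Afp), 1 of stomach and oesophagus (Gata5) and 2 of thyroid and thymus. None was called. Afp was at 7.75, 7.11 and 4.98 CPM in wild type and 5.39, 3.28 and 4.25 CPM in the knockout-labelled libraries (log2 -0.62). For Gata5, values were 258, 265 and 292 CPM against 237, 217 and 236 CPM (log2 -0.24), without overlap. Both had an unadjusted p under 0.05 by edgeR's quasi-likelihood test. Gata5 is also made by lung mesenchyme and mesothelium. Left-right asymmetry genes had 0 of 4.

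Of the other called genes, the largest rises with a named gene were at low levels. Caln1 was at 0.957, 0.841 and 0.959 CPM against 2.94, 8.69 and 4.54 CPM (log2 2.54, adjusted p = 0.0206), and Selenbp2 at 1.44, 2.06 and 2.20 CPM against 5.78, 5.89 and 4.35 CPM (log2 1.48, adjusted p = 0.0185). Tmod4 was at 2.39, 2.24 and 2.68 CPM against 5.19, 8.21 and 5.99 CPM (log2 1.40, adjusted p = 0.0195). The groups of these 3 genes did not overlap, and each call was lost in 2 to 4 of the 6 fits with a library left out (adjusted p 0.0593 to 0.11). Htra1, a secreted serine protease, rose from 8.32, 8.60 and 7.48 CPM to 13.5, 23.3 and 17.5 CPM (log2 1.15, adjusted p = 0.0213; lost in 4 of 6, 0.0661 to 0.0911). Rbm46 rose from 41.8, 41.6 and 57.99 CPM to 81.6, 74.1 and 96.7 CPM (log2 0.84, adjusted p = 0.0195; lost in 3 of 6, 0.0801 to 0.107). Adarb1, an RNA-editing deaminase, rose from 97.3, 83.95 and 92.2 CPM to 124, 204 and 167 CPM (log2 0.86, adjusted p = 0.0246; lost in 4 of 6, 0.0621 to 0.128).

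Among the lowered genes, Hmcn2, a hemicentin of the extracellular matrix, was at 5.74, 6.54 and 5.66 CPM against 1.47, 0.869 and 0.676 CPM (log2 -2.56, adjusted p = 0.00319) and held in all 6. Pltp, a phospholipid transfer protein, fell from 94.1, 97.8 and 99.4 CPM to 65.8, 64.98 and 60.8 CPM (log2 -0.60, adjusted p = 0.00233) and also held in all 6; it overlaps Ctsa on the opposite strand. Tbx3os1, the antisense neighbour of the lung mesenchyme factor Tbx3, was called higher (log2 0.69, adjusted p = 0.0259), while Tbx3 was not (log2 0.21, adjusted p = 0.214). The pair overlaps on opposite strands, so its reads are uncertain, and the call of Tbx3os1 was lost without wild type 1, wild type 2 or knockout-labelled 3 (adjusted p 0.0808 to 0.114). Gm5148, Rps3a1, Rpl34-ps1 and Ppp1ccb were also called, but have near-identical copies among which reads may have been split, so their values are uncertain.

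X-linked genes were among the calls while a marker of the X chromosome differed between libraries. Xist, the RNA that coats the inactive X of female cells, was at 1344, 2273 and 2022 CPM in wild type and 108, 991 and 388 CPM in the knockout-labelled libraries. All 3 were below the lowest wild-type library, with a wide spread (log2 -1.92, SE 0.59, adjusted p = 0.194). Eif2s3x, which escapes this inactivation, was called lower, from 269, 308 and 321 CPM to 207, 235 and 211 CPM (log2 -0.46, adjusted p = 0.0206), and so was the X-linked gene Pbdc1 (log2 -0.34, adjusted p = 0.0248). Kdm5c (-0.27), Kdm6a (-0.30) and Ddx3x (-0.14) were lower in every knockout-labelled library without a call. Eif2s3x and Pbdc1 each held in 2 of the 6 fits with a library left out (adjusted p in the others, 0.0525 to 0.13). The sex of the embryos is not in the labels, and its part in these and the other results was not tested. On the X chromosome as a whole, 5 of 577 tested genes were called (0.867%).

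Chromosome 3, which carries Intu, held 20 of the called genes among 834 tested (2.4%), against 87 of 8359 on the other chromosomes (1.04%). Within 10 Mb of Intu, 2 of 78 tested genes were called (2.56%): Fat4, given above, and the predicted gene Gm5148, which fell from 2.58, 2.06 and 1.92 CPM to 0.196, 0.290 and 0.0966 CPM (log2 -3.41, adjusted p = 0.00533). The calls lay along the chromosome, as its plot shows. Shares over stretches of 20 Mb ran from 0.0% (0 of 75 genes, 0 to 20 Mb beyond Intu) to 4.65% (2 of 43, 20 to 40 Mb before it). Between 40 and 60 Mb beyond Intu, the stretch with the most tested genes, 9 of 258 were called (3.49%). Several of the 20 called genes are described above, such as Stmn2, Fhdc1, Celf3, Synpo2 and Tspan2. The share on this chromosome was above that elsewhere in all 6 fits with a library left out. Where fewer genes were called in all, the difference in percent was smaller: without wild type 1 (1.16% against 0.867%), wild type 2 (0.817% against 0.363%) or knockout-labelled 3 (0.703% against 0.376%). Where more were called, it was larger: without wild type 3 (3.15% against 1.17%), knockout-labelled 1 (3.39% against 1.23%) or knockout-labelled 2 (3.30% against 1.43%). The labels do not give the strain of the cells in which the allele was made, and the part of DNA linked to the allele was not tested.

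**Figure D5:**
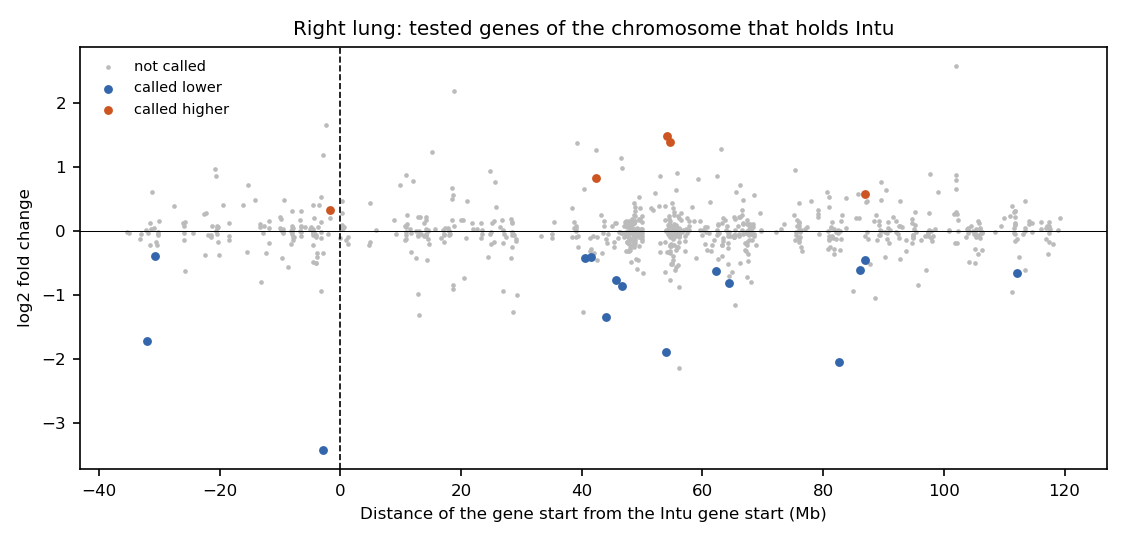
Each point is a tested gene of chromosome 3: the x axis is the distance of its start from the start of Intu in Mb (dashed line at Intu), the y axis the log2 fold change of knockout-labelled minus wild-type right lungs. The 20 called genes (blue lower, orange higher) lie along the chromosome, with 2 within 10 Mb of Intu.

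Finally, the right-lung changes were set against those of the left lungs of the same genotypes. In 1 fit of all 12 libraries, the difference of the knockout effect between the sides was called in 0 of 9519 genes (0.0%), with 124 genes at an unadjusted p under 0.05; DESeq2 and limma-voom also called 0. With no filter on low counts edgeR called 6, and with each left and right pair of libraries as a block it called 2, Adarb1 (difference 0.51 on the log2 scale, adjusted p = 0.00409) and Gm10705 (1.57, adjusted p = 0.000448). Of the 107 genes called in the right lung, 105 were tested in the left, all 105 with the same sign, and 35 were called there as well. The same counts over all tested genes are not given here, so these numbers only describe the called genes. The left and right libraries with the same number deviated from their group means together (correlations 0.253 to 0.486), so the sides are not separate repeats of the experiment. Gli1 had log2 fold changes of -1.13 on the right and -1.06 on the left, Actg2 -2.02 and -1.97, and Cxcl12 -0.62 and -0.62. The neuronal list had a median of -0.99 on the right and -0.73 on the left, and the platelet list -0.74 and -0.95. The neuroendocrine medians were -1.34 and -1.30, and the low-oxygen ones 0.46 and 0.63. Differences of the medians were not tested. For Stmn2 the estimates were -1.71 and -1.15, and for Hand2 -2.20 and -1.30. These 2 genes were named for their calls on the right, which favours larger estimates there. The 3 genes with the smallest p of this difference were A730020E08Rik, Pex10 and Crmp1, with differences of 0.81, -0.37 and -0.45 (unadjusted p = 0.00419, 0.00786 and 0.00958), each with an adjusted p of 1.00 by edgeR's quasi-likelihood test. A count of 0 in the fit without pairs does not show that the sides respond alike.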

How the data were processed

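Raw read counts per gene were deposited by the authors as 1 table. The submitters' processing notes name FastQC, HISAT2, featureCounts and the GRCm38 build; for versions and strand setting, the sources used here give nothing. The table used here holds 31078 genes, 99.5% with a matched symbol, after 1 incomplete last row was left out, so its totals are part of each library's depth.

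The 6 right libraries were fitted with edgeR 4.0.16 in R 4.3.3 (filterByExpr with a minimum count of 10 and total of 15, TMM factors 0.992 to 1.01, quasi-likelihood test, 4 residual degrees of freedom, no covariate), and p-values were adjusted over all 9193 genes tested. Alternatives were DESeq2 1.42.0, its size factors in edgeR, limma-voom 3.58.1, other filters, all 12 libraries, a replicate block and each library left out. The sides were compared by an interaction over 12 libraries. On simulated counts of 9193 genes, this comparison called 73.1% of 67 genes changed 1.5-fold, 71.6% of 67 changed 2-fold and 95.5% of 66 changed 4-fold. It also called 12 of the genes left unchanged. Each gene was drawn on its own from the spread fitted to these libraries. Effects that many genes of a library share were left out, so these shares do not measure how many real changes were found.

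The 43 lists hold 1017 genes, of which 590 were in the table, 514 were tested and 38 were called. Members and lists were chosen with earlier results of these data known. Named by rule were Intu, Gli1 and Hhip; the 12 largest called changes in each direction with non-overlapping groups and a group mean of at least 5 CPM, predicted genes and pseudogenes aside; the 4 called genes of smallest p in each list, or the 2 of smallest p where none was called; called genes within 10 Mb of Intu; and the 3 of smallest p between sides. Other genes were chosen after their values were seen. A few results under this rule are not reported here.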

Additional observations from a re-analysis of the deposited data

Results flagged for a closer look

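In the fit that keeps each left and right pair of libraries as a block, the knockout effect differed between the sides in 2 genes, by a test of the difference itself (edgeR's quasi-likelihood test). Adarb1 rose more on the right: the right minus left difference was 0.51 on the log2 scale (SE 0.08, adjusted p = 0.00409), with 97.3, 84.0 and 92.2 CPM in right wild-type and 124, 204 and 167 CPM in right knockout-labelled libraries, against 133, 103 and 135 CPM and 117, 196 and 155 CPM on the left. The predicted gene Gm10705, on chromosome 3, had a difference of 1.57 (SE 0.20, adjusted p = 0.000448), with 20.1, 17.9 and 9.97 CPM in right wild-type and 38.2, 17.6 and 39.7 CPM in right knockout-labelled libraries. Its left libraries were at 41.4, 46.2 and 49.0 CPM and 36.1, 12.7 and 45.5 CPM, and knockout-labelled 2 was low on both sides. Without the pairs neither gene passed (unadjusted p = 0.0636 and 0.0137, adjusted p = 1.00 for both).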

How the results depend on the processing

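With each library left out in turn, the number of genes called in the right lung ran from 38 to 149, that of list genes from 21 to 48, and that of genes within 10 Mb of Intu from 1 to 3. Against 107 genes called, the count was 306 with no filter on low counts, where 17474 genes were tested, and 222 with DESeq2; all 107 and 105 of the genes were kept. Called list genes numbered 38, then 79 with no filter and 64 with DESeq2, and genes within 10 Mb of Intu 2, then 8 and 4. DESeq2 size factors and a filter of at least 1 CPM gave 107 each, sharing all 107, limma-voom 109 (103 shared) and the fit of 12 libraries 144 (97 shared). Right minus left differences were called in 0 genes, then in 6 with no filter and in 2 with a replicate block of left and right, and in 0 with any library left out. The numbers of wild-type and knockout-labelled right libraries did not pair them (correlations -0.0948 to -0.0423); a replicate block gave 74 calls, 69 of them among the 107, and 1 within 10 Mb of Intu. The cause of these shifts was not tested. With a library left out, the estimates of 4 genes named by rule changed sign: Hbb-bh1 ran from -0.026 to 0.96, Cfap126 from -0.55 to 0.18, Slc5a5 from -0.15 to 0.42 and A730020E08Rik from -0.014 to 0.063. Of the other uncalled genes named in the text, 12 did so, all between -0.22 and 0.19: Ccnd1, Ccnd2, Dcx, Erbb3, Fmod, Gli2, Hoxa5, Rsg1, Smo, Sox5, Uchl1 and Wnt2. With 3 libraries a group and only part of the genome counted, a missed call does not show an unchanged gene.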
